A study of Homo sapiens with 6 samples.

Results

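This report describes 10 genes of the endothelial and VEGF axis, read by gene symbol from a table of 17721 genes in a human breast cancer cell line. The genes are the ligands VEGFA and VEGFC, the VEGF receptors KDR and FLT1, the co-receptor NRP1, the angiopoietin receptor TEK and its partner TIE1, and the junction genes CDH5, PECAM1 and ESAM. All 10 were in the table. The rule names them by symbol and uses no measured value, although the set was put together with earlier results of these data known. The cells were MDA-MB-231BR, a brain-tropic derivative of the triple-negative breast cancer line MDA-MB-231, grown as monocultures. The 2 groups were cells stably expressing a control shRNA (a short hairpin RNA delivered by lentivirus with antibiotic selection) and cells stably expressing an shRNA against ACSS2, each with 3 libraries that the labels call biological replicates. ACSS2 turns acetate into acetyl-CoA in the cytosol and nucleus. How many hairpin sequences were used is not stated in the labels, and neither group is described as a clone.

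VEGF ligands are secreted proteins that bind receptor tyrosine kinases, mainly KDR (VEGFR2) and FLT1 (VEGFR1), on the endothelial cells that line blood vessels. NRP1 binds VEGFA beside KDR and also binds class 3 semaphorins. TIE1 and TEK (TIE2) form the angiopoietin receptor pair, and CDH5 (VE-cadherin), PECAM1 (CD31) and ESAM sit at the contacts between endothelial cells. Tumour cells are a known source of VEGFA, whose transcription rises with low oxygen, whereas the receptors and junction proteins are usually regarded as products of endothelial cells.

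The 10 genes lie on 9 chromosomes, and the coordinates here are the RefSeq gene spans on GRCh38. VEGFA is at chromosome 6, 43770211 to 43786487 (6p21.1), and VEGFC at chromosome 4, 176683538 to 176792922 (4q34.3). KDR is at chromosome 4, 55078481 to 55125595 (4q12), FLT1 at chromosome 13, 28300346 to 28495128 (13q12.3), and NRP1 at chromosome 10, 33177493 to 33334667 (10p11.22). TIE1 is at chromosome 1, 43300982 to 43323108 (1p34.2), and TEK at chromosome 9, 27109225 to 27230174 (9p21.2). CDH5 is at chromosome 16, 66366691 to 66404784 (16q21), PECAM1 at chromosome 17, 64319415 to 64390860 (17q23.3), and ESAM at chromosome 11, 124753126 to 124762290 (11q24.2). Values are per gene, so the splice forms of VEGFA and the soluble form of FLT1 are not told apart.

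RefSeq promoter windows of 300 bases (250 before to 50 after the transcript start, GRCh38.p14) were matched for 5 of the 10 genes. Those shown belong to the angiopoietin receptor pair, in which TIE1 was abundant and TEK was near 0, and to KDR and VEGFC, which were higher in the ACSS2 shRNA library of each replicate number. Each is read along the strand of its gene, and capitals mark the GC box (GGGCGG or, on the other strand, CCGCCC) and the ETS core (GGAA or TTCC), the site core of the ETS factors active in endothelial genes. These motifs were chosen after the values were seen.
TIE1, chr1:43300732-43301031, plus strand: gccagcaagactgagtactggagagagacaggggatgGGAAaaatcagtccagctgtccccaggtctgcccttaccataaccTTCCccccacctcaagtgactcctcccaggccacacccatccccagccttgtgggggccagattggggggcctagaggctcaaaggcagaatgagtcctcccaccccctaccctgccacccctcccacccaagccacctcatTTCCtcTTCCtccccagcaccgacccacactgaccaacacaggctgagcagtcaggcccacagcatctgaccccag
TEK, chr9:27108975-27109274, plus strand: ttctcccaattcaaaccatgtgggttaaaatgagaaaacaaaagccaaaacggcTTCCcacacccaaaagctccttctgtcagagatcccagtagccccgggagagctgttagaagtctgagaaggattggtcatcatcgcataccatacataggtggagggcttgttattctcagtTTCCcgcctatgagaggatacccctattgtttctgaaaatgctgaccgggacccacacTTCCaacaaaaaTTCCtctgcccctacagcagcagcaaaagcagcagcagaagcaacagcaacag
KDR, chr4:55125546-55125845, minus strand: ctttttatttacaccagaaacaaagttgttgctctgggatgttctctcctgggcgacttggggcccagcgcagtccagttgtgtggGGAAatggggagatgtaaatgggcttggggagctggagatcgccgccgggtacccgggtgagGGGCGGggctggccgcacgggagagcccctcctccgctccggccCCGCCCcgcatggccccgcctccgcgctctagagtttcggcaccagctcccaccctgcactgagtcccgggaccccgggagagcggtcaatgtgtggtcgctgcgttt
VEGFC, chr4:176792873-176793172, minus strand: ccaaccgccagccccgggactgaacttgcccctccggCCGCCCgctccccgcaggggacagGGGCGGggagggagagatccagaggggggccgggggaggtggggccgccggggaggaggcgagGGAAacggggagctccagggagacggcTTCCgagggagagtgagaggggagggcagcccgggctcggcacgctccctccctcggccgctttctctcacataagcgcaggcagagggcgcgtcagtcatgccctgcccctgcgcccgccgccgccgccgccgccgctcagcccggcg
The TIE1 window held 1 CpG and 4 ETS cores with no GC box, and 11.0% of all 35116 RefSeq windows of this length held no more CpG. Of the 2 RefSeq windows of TEK, the one shown held 5 CpG and 4 ETS cores, and the other (chr9:27109200-27109499) held 3 CpG and 7 ETS cores. Neither held a GC box. KDR had 22 CpG, 2 GC boxes and 1 ETS core, and VEGFC had 32 CpG, 2 GC boxes and 2 ETS cores. The median over all windows was 14 CpG. The GC box was found in 45.0% of all windows and the ETS core in 95.5%, so an ETS core alone sets no window apart. The FLT1 window (33 CpG) held 3 GC boxes, 4 ETS cores and a TATAAA, which 11.5% of windows held on either strand. The letters ACGTG, the core of the hypoxia response element, were in 21.4% of all windows (either strand) and in none of the windows of TIE1, TEK, KDR, FLT1 and VEGFC. No motif overlapped another in the windows shown. These matches describe letters and do not show binding.

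Expected counts summed to between 15048275 and 18608124 per library. The comparison used edgeR's quasi-likelihood test on 13003 genes, with Benjamini-Hochberg adjustment over all of them and a threshold of 0.05. It was run without the replicate number (the unpaired fit) and with the replicate number 1 to 3, which the labels give as a batch tag in both groups, as a block (the paired fit). The unpaired fit called 9 genes (0.0692% of those tested). The paired fit called 12.7% of genes higher and 12.4% lower in ACSS2 shRNA cells, and 38.7% of genes differed between replicate numbers in it. Spread between replicates, as edgeR's biological coefficient of variation, was 26.6% in the unpaired and 11.8% in the paired fit. The targeted gene, ACSS2, had 43.7, 44.5 and 94.5 TPM in control replicates 1, 2 and 3, against 7.32, 33.3 and 53.0 TPM in the ACSS2 shRNA libraries of those numbers. It was lower in each pair, but the groups overlapped, because ACSS2 shRNA replicate 3 exceeded control replicates 1 and 2. Without the block, edgeR estimated a log2 fold change of -1.05 (SE 0.64, adjusted p = 0.504), and with the block -1.31 (SE 0.30, adjusted p = 0.00757). DESeq2 with the block did not call it (-1.38, adjusted p = 0.124), and neither did limma on log2(TPM + 0.1) with the block (-1.27, adjusted p = 0.0759). Without replicate 1 the paired value was -0.70, and the unpaired one ran from -0.56 (without control replicate 3) to -1.75 (without ACSS2 shRNA replicate 3). The labels do not say what a replicate number stands for (a culture, a passage or a hairpin). The p-values set each difference against the variation left between these libraries, in the paired fit after the replicate number is taken out. Whether they extend to other cultures or hairpins was not tested.

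In control cells the 10 genes spanned a wide range of levels. TPM, a share of transcripts that divides by transcript length, is used to compare genes. ESAM was highest, with a mean of 205.3 TPM, above 96.1% of all genes in the table, and TIE1 followed with 150.8 TPM (above 94.5%). VEGFA had 88.4, VEGFC 51.4 and NRP1 29.4 TPM. KDR had 4.06, PECAM1 1.46 and FLT1 1.16 TPM, CDH5 had 0.423 TPM, and TEK had 0.0233 TPM, above 12.2% of genes. The control libraries of neighbours in this order overlapped for ESAM and TIE1, TIE1 and VEGFA, KDR and PECAM1, and PECAM1 and FLT1. All other neighbours were separated in the control libraries. Of the genes regarded as endothelial, then, ESAM and TIE1 were abundant transcripts of this tumour line, and CDH5 and TEK were close to the lower end.

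**Figure D1:**
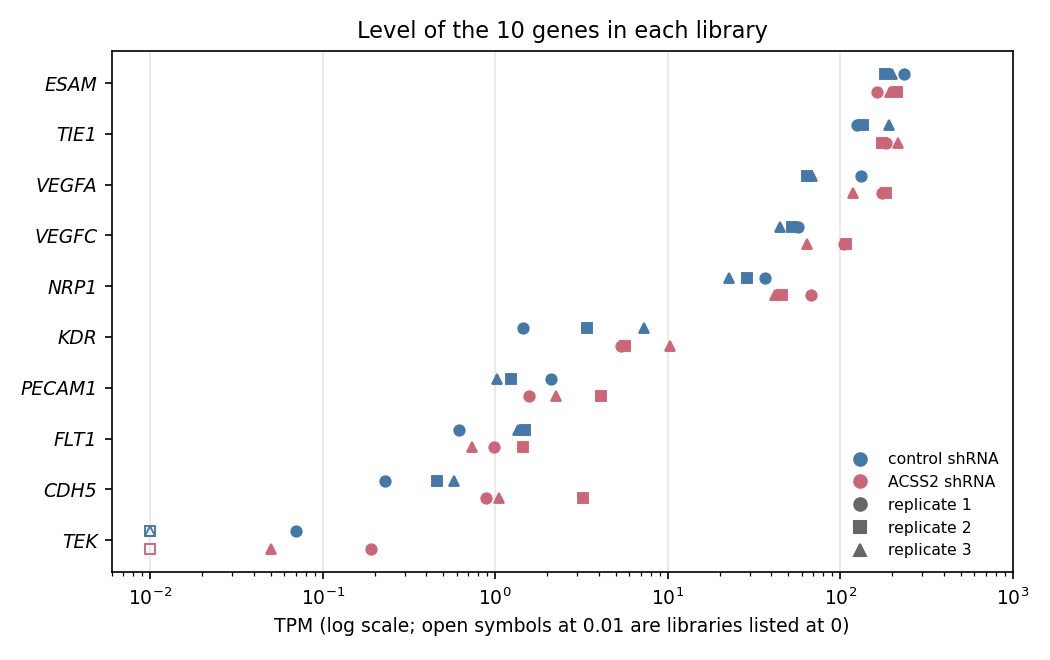
TPM of the 10 genes in each of the 6 libraries, on a log scale, with control shRNA libraries in blue, ACSS2 shRNA libraries in red and replicate number by symbol. ESAM and TIE1 lie above 100 TPM in all 6 libraries, whereas TEK is listed at 0 in 3 of them.

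No gene of the 10 passed the unpaired test in either direction (0 of the 9 that passed the low-count filter, against 0.0692% of all genes), and DESeq2 without the block also called 0 of the 9. In the paired fit 5 of the 9 were higher in ACSS2 shRNA cells (CDH5, KDR, NRP1, VEGFA and VEGFC, against 12.7% of all genes) and 0 were lower (against 12.4%). TIE1, FLT1, PECAM1 and ESAM passed neither fit, and TEK was under the filter. Unadjusted unpaired p was under 0.05 for 4 of the 9: 0.0122 for CDH5, 0.00844 for NRP1, 0.0463 for VEGFA and 0.00706 for VEGFC. Over all genes this held for 1820 (14.0%). The median log2 fold change of the 9 was 0.72 unpaired and 0.71 paired, against 0.02 over all genes in both fits. CPM was higher with ACSS2 shRNA in all 3 pairs for CDH5, TIE1, KDR, NRP1, VEGFA and VEGFC. The share of all genes for which this held was not counted, so it is given as a description. For CDH5, NRP1 and VEGFC, every ACSS2 shRNA library was above every control library, which held for 10.7% of all genes tested. Replicate number itself gave an adjusted p under 0.05 for 5 of the 9 (against 38.7% of all genes): 0.000668 for KDR, 0.00724 for NRP1, 0.0152 for TIE1, 0.0321 for VEGFA and 0.0346 for CDH5.

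**Figure D2:**
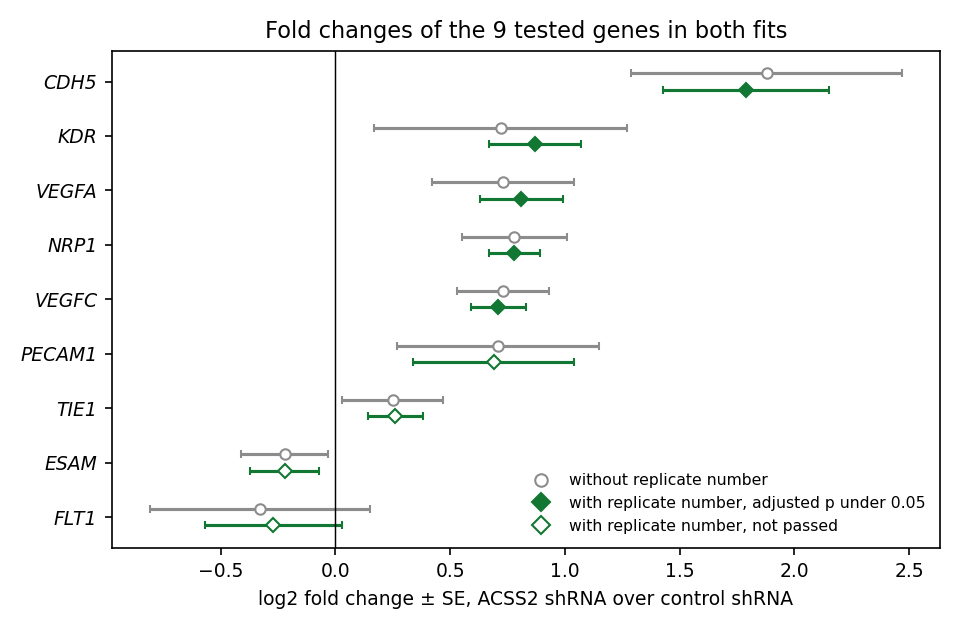
Log2 fold change ± SE of ACSS2 shRNA over control shRNA for the 9 tested genes, in the unpaired fit (open grey circles) and the paired fit (diamonds, filled where the adjusted p is under 0.05). Estimates lie close together in both fits, and the SE is smaller in the paired fit, for instance 0.23 against 0.11 for NRP1.

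VEGFA, the main ligand that drives vessel sprouting and permeability, was higher in ACSS2 shRNA cells in each pair. Its level was 131.5, 64.6 and 69.1 TPM in control replicates 1, 2 and 3, against 174.7, 185.4 and 119.1 TPM in the ACSS2 shRNA libraries of those numbers. Control replicate 1 stood above the other two controls and above ACSS2 shRNA replicate 3, so the groups overlapped. The means were 88.4 ± 37.4 and 159.7 ± 35.6 TPM (SD, n = 3). The log2 ratio of CPM was 0.23, 1.42 and 0.78 in pairs 1, 2 and 3, so the widest difference was in pair 2. On the log2 scale the unpaired difference was 0.73 (SE 0.31, edgeR adjusted p = 0.352), whereas the paired one was 0.81 (SE 0.18, adjusted p = 0.00614), a 1.75-fold rise in the paired fit. That call was lost without replicate 2 (0.47, adjusted p = 0.0976) and with DESeq2 and the block (0.79, adjusted p = 0.093).

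VEGFC, the ligand best known for the growth of lymphatic vessels, showed a like difference without overlap. Control replicates 1, 2 and 3 had 56.9, 52.5 and 44.7 TPM, and ACSS2 shRNA replicates had 104.9, 108.8 and 64.0 TPM. The lowest ACSS2 shRNA library, replicate 3, paired with the lowest control library. Means were 51.4 ± 6.18 and 92.6 ± 24.8 TPM (SD, n = 3). The edgeR test put the log2 difference at 0.73 (SE 0.20, adjusted p = 0.188) when unpaired, and at 0.71 (SE 0.12, adjusted p = 0.00143) when paired, a 1.64-fold rise in the paired fit. The paired call held in all 10 alternatives to that fit, with a log2 fold change between 0.55 and 0.83 and a largest adjusted p of 0.0285.

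NRP1, the shared co-receptor for VEGFA and class 3 semaphorins, had the smallest p of the 9 tested genes in the paired fit. Its levels were 36.7, 29.0 and 22.6 TPM in control and 67.7, 46.0 and 41.8 TPM in ACSS2 shRNA replicates 1, 2 and 3. The order of the replicates was the same in both groups, and the groups did not overlap. The pair log2 ratios of CPM were 0.77, 0.75 and 0.83. Both fits put the log2 fold change at 0.78. The unpaired one had SE 0.23 (edgeR adjusted p = 0.197), and in the paired one, with SE 0.11 (adjusted p = 0.000404), NRP1 rose 1.72-fold. In all 10 alternatives to the paired fit it passed, between 0.76 and 0.84, with a largest adjusted p of 0.0206.

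KDR, the main signalling receptor for VEGFA, was transcribed at a low level that differed between replicate numbers as well as within each pair. Control replicates 1, 2 and 3 had 1.46, 3.39 and 7.34 TPM, from 89, 189 and 391 counts. ACSS2 shRNA replicates had 5.36, 5.64 and 10.3 TPM, from 291, 270 and 552 counts. In both groups replicate 3 was highest, and each ACSS2 shRNA library lay above the control of its number while the groups overlapped. Pair log2 ratios were 1.68, 0.65 and 0.44. Without the block, edgeR estimated a log2 fold change of 0.72 (SE 0.55, adjusted p = 0.604), and with the block 0.87 (SE 0.20, adjusted p = 0.00735), a 1.83-fold rise in the paired fit. The unpaired estimate moved to 1.50 without control replicate 3 and to 0.28 without ACSS2 shRNA replicate 3, and passed in neither case (adjusted p = 0.194 and 0.877). With replicate 1 left out the paired value was 0.53 (adjusted p = 0.0189), and limma on log2(TPM + 0.1) did not call it (1.00, adjusted p = 0.0524).

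FLT1, which binds VEGFA tightly and also acts as a decoy, stayed near 1 TPM. It had 0.62, 1.5 and 1.36 TPM in control and 0.98, 1.46 and 0.73 TPM in ACSS2 shRNA replicates 1, 2 and 3, from at most 61 counts. The direction differed between pairs, with log2 ratios of 0.5, -0.3 and -0.89. On the log2 scale the unpaired difference was -0.33 (SE 0.48, edgeR adjusted p = 0.803), whereas the paired one was -0.27 (SE 0.30, adjusted p = 0.533). A difference was not detectable with these libraries.

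**Figure D3:**
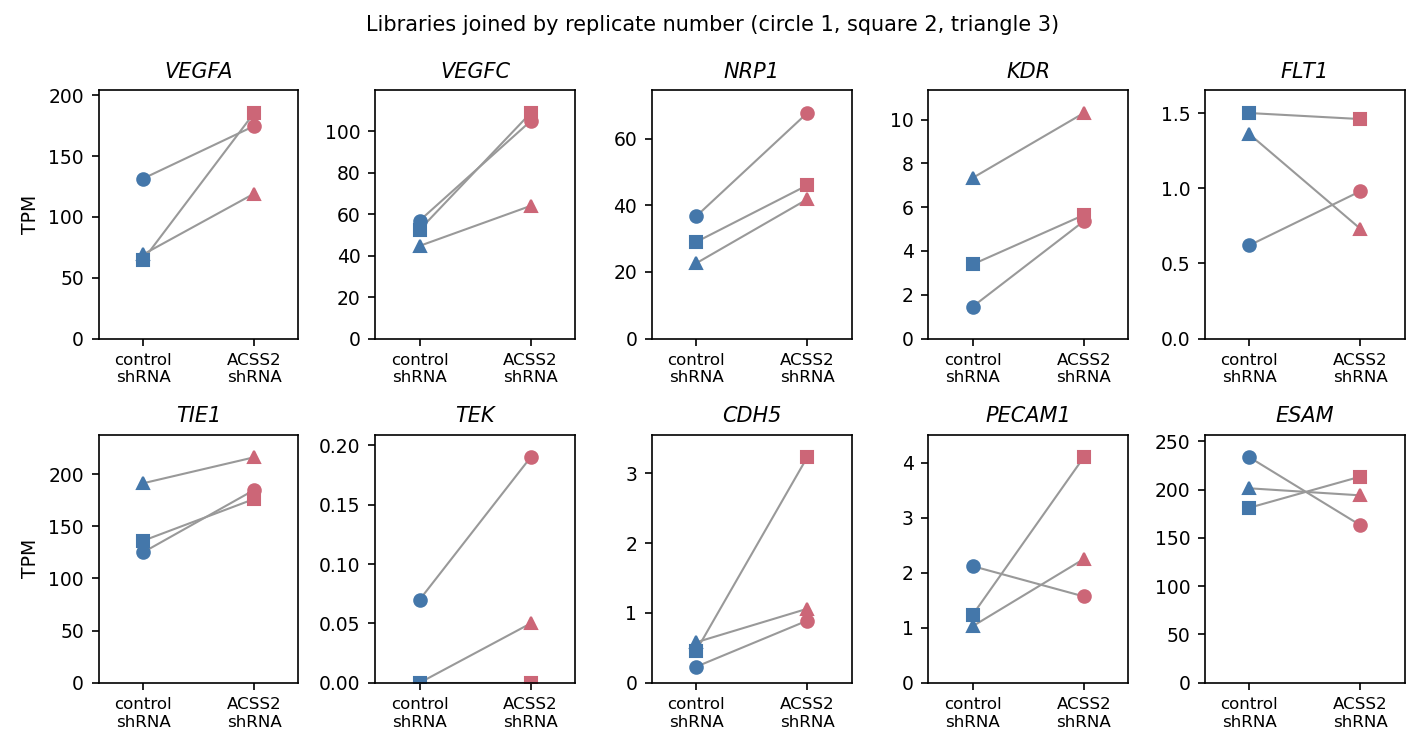
TPM of each gene in control shRNA and ACSS2 shRNA libraries, with lines joining libraries of the same replicate number and every axis starting at 0. For VEGFA, VEGFC, NRP1, KDR, TIE1 and CDH5 all 3 lines go up, and for FLT1, PECAM1 and ESAM the 3 lines do not share a direction.

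TIE1, an orphan receptor that modulates TEK signalling, was the most abundant receptor of the set. Control replicates had 125.0, 136.1 and 191.2 TPM, and ACSS2 shRNA replicates had 184.7, 176.1 and 216.1 TPM, from 5003 to 7706 counts. Every pair was higher with ACSS2 shRNA, by log2 ratios of CPM of 0.37, 0.29 and 0.13, but control replicate 3 exceeded 2 of the ACSS2 shRNA libraries. The edgeR test put the log2 difference at 0.25 (SE 0.22, adjusted p = 0.674) when unpaired, and at 0.26 (SE 0.12, adjusted p = 0.117) when paired, and of the 10 alternatives to the paired fit TIE1 passed in that scaled by library size alone (0.32, adjusted p = 0.0498).

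TEK, the receptor that binds angiopoietins, was at the limit of detection. Control replicates 1, 2 and 3 gave 3, 0 and 0 counts (0.07, 0 and 0 TPM), and those of ACSS2 shRNA gave 8, 0 and 2 counts (0.19, 0 and 0.05 TPM). A count of 0 allows up to 3 counts, or 0.178 to 0.199 CPM (counts scaled to library size) in the 3 libraries with none, counting error only. With no filter, edgeR gave a log2 fold change of 1.58 with SE 1.38 (adjusted p = 0.706) when unpaired and SE 1.27 (adjusted p = 0.454) when paired. TEK was thus near 0 in the same libraries in which its partner TIE1 exceeded 100 TPM.

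CDH5, the cadherin of endothelial adherens junctions, had the largest fold change of the 10 genes at a very low level. Control replicates had 10, 18 and 22 counts (0.23, 0.46 and 0.58 TPM), and ACSS2 shRNA replicates had 34, 109 and 39 counts (0.89, 3.23 and 1.06 TPM). The groups did not overlap, and ACSS2 shRNA replicate 2 stood far above the rest. Without the block, edgeR estimated a log2 fold change of 1.88 (SE 0.59, adjusted p = 0.217), and with the block 1.79 (SE 0.36, adjusted p = 0.00394), a 3.45-fold rise in the paired fit. Without replicate 2 it was 1.14 (SE 0.41, adjusted p = 0.0633) and did not pass. Over all genes, 664 of 13061 were higher in that fit, against 1657 of 13003 with all replicates. The unpaired value without ACSS2 shRNA replicate 2 was 1.08.

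PECAM1, an adhesion molecule of endothelial cells, platelets and leukocytes, had 2.12, 1.24 and 1.03 TPM in control and 1.57, 4.1 and 2.25 TPM in ACSS2 shRNA replicates 1, 2 and 3. It was lower in pair 1 (log2 ratio -0.62) and higher in pairs 2 (1.64) and 3 (1.1). On the log2 scale the unpaired difference was 0.71 (SE 0.44, edgeR adjusted p = 0.514), whereas the paired one was 0.69 (SE 0.35, adjusted p = 0.163). Leaving out replicate 1 moved the paired value to 1.38 (adjusted p = 0.00389), so this library pair set whether PECAM1 passed. The unpaired value was 0.28 without ACSS2 shRNA replicate 2 and 1.14 without control replicate 1. The gene model of the table spans 177652 bases against 71446 in RefSeq and covers MILR1 and POLG2, and the labels do not say how reads in shared stretches were assigned.

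ESAM, a tight-junction adhesion molecule also found on platelets, had 233.4, 181.2 and 201.3 TPM in control and 163.1, 213.4 and 194.0 TPM in ACSS2 shRNA replicates 1, 2 and 3. The groups overlapped, with means of 205.3 ± 26.3 and 190.1 ± 25.4 TPM (SD, n = 3). Both fits gave -0.22 on the log2 scale, with SE 0.19 (edgeR adjusted p = 0.653) in the unpaired and SE 0.15 (adjusted p = 0.31) in the paired one, and pair 1 had the widest log2 ratio (-0.71, against 0.16 and -0.1). The ESAM model of the table spans 83146 bases against 9165 in RefSeq and covers NRGN, VSIG2 and MSANTD2. Among these neighbours NRGN, a neuronal calmodulin-binding protein, was also abundant (123.2 ± 71.8 TPM in control and 80.9 ± 41.7 TPM in ACSS2 shRNA cells). NRGN fell in the paired fit (-0.70, adjusted p = 0.00158). ROBO4, an endothelial guidance receptor in the same region of chromosome 11, had 168.8 ± 47.6 and 186.2 ± 32.0 TPM. These neighbours were looked up after their values were seen. Within 200 kb of ESAM, 7 of the 12 other coding genes in the table had a mean above 10 TPM, and within 200 kb of TIE1 6 of 12 did, against 7799 of all 17721 genes in the table.

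Other genes of endothelial identity showed the same mixture of levels. Of 24 marker genes, 23 were in the table and 13 passed the low-count filter. The limits that follow were set after the values were seen. ROBO4, ENG (a TGF-beta co-receptor), EGFL7, ICAM2 and GATA2 were above 10 TPM in all 6 libraries and gave 96.8% to 98.4% of the summed level of the list. In contrast, 13 genes stayed under 1 TPM in all libraries. Among these were the defining endothelial genes VWF (at most 0.2 TPM), ERG (at most 0.07 TPM), CLDN5 (at most 0.05 TPM) and EMCN (at most 0.03 TPM), and BMX was listed at 0 throughout. The sum of the list was 454.8 to 597.6 TPM in control and 521.3 to 634.9 TPM in ACSS2 shRNA cells. In the paired fit 0 of the 13 tested were higher (against 12.7% of all genes) and 2 were lower (against 12.4%). Those 2 were S1PR1 (-1.06, adjusted p = 0.0178) and PLVAP (-0.92, adjusted p = 0.0365). Both were at a low level, 0.53 to 2.11 TPM for S1PR1 and 0.77 to 2.89 TPM for PLVAP, and the groups overlapped for each. The share that was lower is near that of all genes. None was called unpaired. The median paired log2 fold change was -0.26. The calls depended on which pair was left out, with 1 higher and 1 lower gene without replicate 1 and none without replicate 3. Over all genes, 1382 of 13108 were higher and 1383 lower without replicate 1. Without replicate 3, 1555 of 13084 were higher and 1554 lower.

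**Figure D4:**
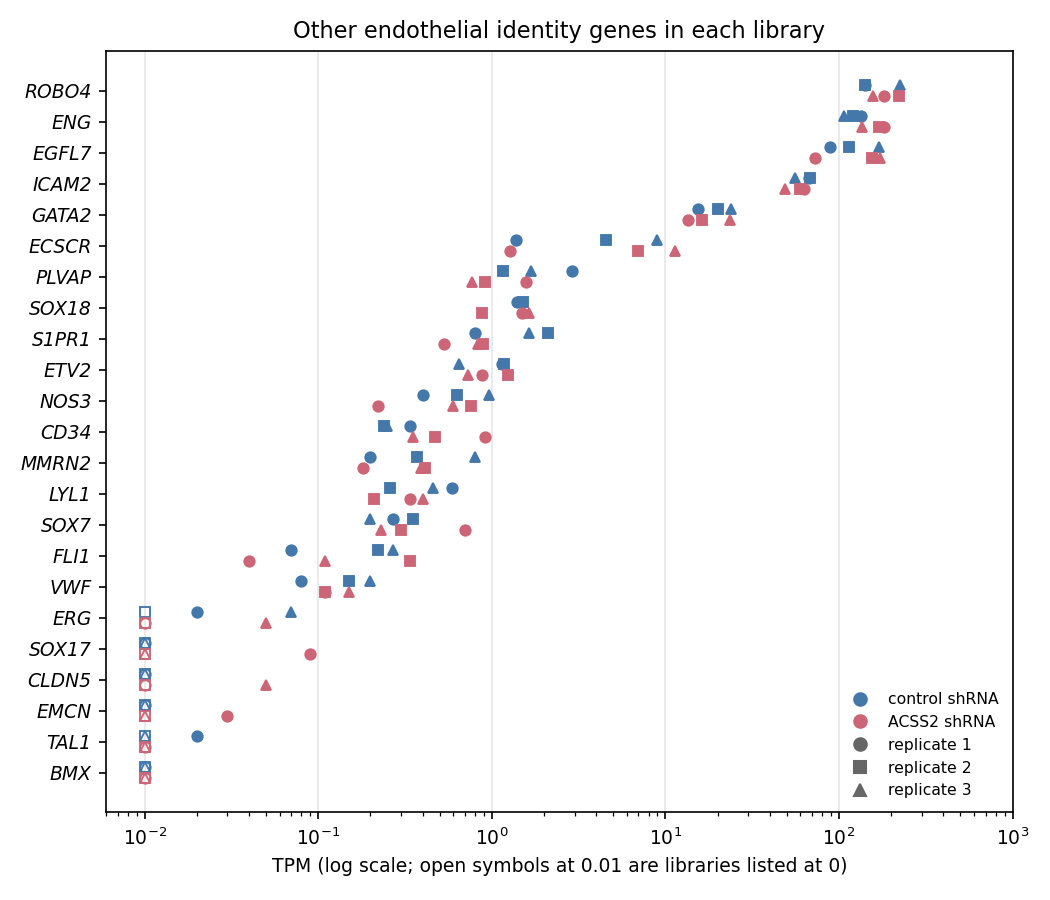
TPM of the 23 other endothelial identity genes in each library, on a log scale, with groups by colour and replicate number by symbol. ROBO4, ENG, EGFL7, ICAM2 and GATA2 lie above 10 TPM in all 6 libraries, and BMX is listed at 0 in all of them.

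Markers of other cells were looked at in the same way. Of 9 leukocyte genes in the table, 6 stayed under 1 TPM in all libraries, and CD68, a lysosomal protein that many cell lines express, gave nearly all of their sum (381.2 to 891.8 TPM in control, 409.8 to 820.0 TPM in ACSS2 shRNA cells). PTPRC, which encodes the leukocyte antigen CD45, was at most 0.18 TPM. ITGAX, at a control mean of 0.793 TPM, rose in the paired fit (1.12, adjusted p = 0.00709). Of 8 pericyte and fibroblast genes 5 were tested and 2 fell in the paired fit (CSPG4 and ACTA2, against 12.4% of all genes), and the sum of the 8 was 27.5 to 61.2 TPM in control and 20.8 to 44.3 TPM in ACSS2 shRNA cells. DCN and LUM were at or near 0. The genes listed as present in this basal-like mesenchymal line (VIM, CD44, EGFR, CAV1, AXL, KRT18 and KRT8) were all above 10 TPM in every library. Of 4 genes expected low, CDH1, which is known to be silent in this line, was at most 0.05 TPM, and PGR was at most 0.24 TPM. ESR1 had 0.57 to 1.21 TPM and EPCAM 1.51 to 4.39 TPM. Of the 7 genes listed as present, CD44 and CAV1 fell in the paired fit (against 12.4% of all genes). Without replicate 2, 0 of the 7 fell, against 917 of all 13061 genes tested. Without replicate 3, 1 of the 7 fell, against 1554 of all 13084. The part of these genes in the changes of the 10 was not tested. In whole-culture RNA, fewer cells of a kind and less RNA per cell cannot be told apart.

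The remaining ligands and receptors of the family passed neither fit. Among ligands, VEGFB had 121.2 ± 16.1 TPM in control and 147.2 ± 3.98 TPM in ACSS2 shRNA cells (paired 0.18, adjusted p = 0.267). PGF, which binds FLT1, had 43.1 ± 24.4 and 47.7 ± 4.8 TPM (paired 0.16, adjusted p = 0.58), but passed without replicate 1 (0.57, adjusted p = 0.00692). VEGFD was at most 0.15 TPM and was not tested. NRP2, the neuropilin linked to VEGFC, had 22.4 ± 3.18 and 21.2 ± 3.16 TPM (paired -0.24, adjusted p = 0.148), so NRP1 rose in the paired fit and NRP2 did not pass. FLT4, the VEGFC receptor of lymphatic endothelium, was at most 0.23 TPM. The angiopoietins ANGPT1, ANGPT2 and ANGPT4 were at most 0.5 TPM in any library. Of their list, only the phosphatase gene PTPRB was tested (1.32 ± 0.386 and 1.4 ± 0.181 TPM, paired -0.02, adjusted p = 0.956).

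Genes of VEGFC processing differed in level in these cells. FURIN, CCBE1 and PCSK7 were the 3 above 10 TPM in all 6 libraries. PCSK5 had 2.98 to 4.83 TPM, and ADAMTS3 had 0.69 to 1.25 TPM. PCSK7, PCSK5 and ADAMTS3 were named after their values were seen. All 5 on the list were tested, 1 rose in the paired fit (against 12.7% of all genes), 0 fell and 4 did not pass, with a median of -0.04. Leaving out replicate 1 added 1 gene that fell, against 1383 of all 13108 genes tested. It was CCBE1, a cofactor of VEGFC cleavage named after its value was seen. FURIN, a proprotein convertase that cleaves VEGFC, had 42.3, 35.1 and 31.9 TPM in control and 74.1, 58.0 and 56.2 TPM in ACSS2 shRNA replicates 1, 2 and 3. Its groups did not overlap, with ACSS2 shRNA higher, which held for 10.7% of all genes tested. The log2 difference was 0.67 in both edgeR fits, with adjusted p = 0.171 unpaired (SE 0.18) and adjusted p = 0.001 with the block (SE 0.11).

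Partners of the neuropilins in semaphorin signalling were the next list, with 12 of 13 tested. In the paired fit 5 rose (against 12.7% of all genes), 0 fell and 7 did not pass, with a median of 0.16, and none was called unpaired. Those that rose were 4 plexins and 1 semaphorin. PLXNA1 had 28.0 ± 8.04 TPM in control and 68.1 ± 10.8 TPM in ACSS2 shRNA cells (1.20, SE 0.13, adjusted p = 9.89e-05). PLXND1 had 27.3 ± 4.02 and 52.8 ± 3.89 TPM (0.91, SE 0.11, adjusted p = 0.000219). PLXNA3 had 7.82 ± 0.174 and 13.6 ± 2.52 TPM (0.70, adjusted p = 0.00201). These plexins are the receptor chains that pair with NRP1 or bind semaphorins directly, and for each of PLXNA1, PLXND1 and PLXNA3 the groups did not overlap. Every ACSS2 shRNA library lay above every control library for 10.7% of all genes tested. For PLXNA2 and SEMA3B, which also rose, the groups overlapped. SEMA3B, a secreted ligand, had 15.7 ± 6.58 and 24.4 ± 8.73 TPM (0.54, adjusted p = 0.00767), but did not pass with replicate 2 left out (0.44, adjusted p = 0.11). In that fit 3 genes of the list rose, against 664 of all 13061 genes tested.

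Oxygen-sensing genes, which set the activity of the HIF factors upstream of VEGFA, were all tested. Of 10, 3 rose (against 12.7% of all genes) and 1 fell (against 12.4%) in the paired fit, 6 did not pass, and the median was 0.17. HIF1A, the inducible subunit, had 125.6 ± 51.2 and 135.0 ± 12.8 TPM and did not pass (paired 0.08, adjusted p = 0.74). EPAS1 (HIF2A) had 33.2 ± 14.5 and 34.5 ± 6.99 TPM and did not pass either (paired 0.01, adjusted p = 0.966). VHL, which marks the HIF subunits for degradation, rose (0.87, SE 0.14, adjusted p = 0.000943), and so did the HIF prolyl hydroxylase genes EGLN3 (1.13, SE 0.20, adjusted p = 0.00166) and EGLN2 (0.50, SE 0.11, adjusted p = 0.00552). The EGLN2 call was lost without replicate 2 (0.46, adjusted p = 0.0674). ARNT2, a partner of HIF subunits, had 7.11, 5.6 and 8.44 TPM in control and 1.46, 1.58 and 2.25 TPM in ACSS2 shRNA replicates 1, 2 and 3. It fell by 2.11 on the log2 scale in the paired fit (SE 0.16, adjusted p = 7.29e-06), and its groups were far apart. Unpaired, its adjusted p was 0.063. HIF1A and EPAS1 were named after their values were seen.

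Genes known to respond to hypoxia, other than VEGFA, made up a list of 12, all tested. Of these, 8 rose in the paired fit (against 12.7% of all genes), 0 fell and 4 did not pass, with a median of 0.55, and none was called unpaired. The 4 that did not pass, named after their values were seen, included genes of high level. They were LDHA (paired -0.14, adjusted p = 0.519), SLC2A1 (-0.06, adjusted p = 0.762), ADM (-0.23, adjusted p = 0.201) and DDIT4 (0.69, adjusted p = 0.0541). Control means were 1124.7 TPM for LDHA and 221.3 TPM for SLC2A1. Without replicate 2, 1 of the 12 rose, with a median of 0.27. Fewer genes rose over the whole table in that fit too, 664 of 13061 tested, against 1657 of 13003 with all replicates. ANGPTL4, a secreted lipase inhibitor, had 35.6, 7.15 and 4.69 TPM in control and 81.6, 29.1 and 24.1 TPM in ACSS2 shRNA replicates 1, 2 and 3. It was highest in replicate 1 of both groups and higher in each pair (1.66, SE 0.20, adjusted p = 0.000197), and it was the gene that also passed without replicate 2. NDRG1, a stress-induced gene of very high level, had 1206.4, 205.9 and 368.1 TPM in control and 1741.3, 834.1 and 716.8 TPM in ACSS2 shRNA cells (1.06, SE 0.23, adjusted p = 0.00615). Without replicate 2 it did not pass (0.59, adjusted p = 0.116), nor with DESeq2 and the block (1.03, adjusted p = 0.0978). CA9, a carbonic anhydrase that is a standard HIF target, had 38.8, 6.04 and 15.8 TPM in control and 50.0, 27.4 and 31.6 TPM in ACSS2 shRNA cells (0.98, SE 0.25, adjusted p = 0.0147). PFKFB4, a regulator of glycolysis, had 46.9, 17.7 and 27.4 and then 63.4, 40.8 and 38.6 TPM (0.60, adjusted p = 0.0125). Control replicate 2 was the lowest control library for NDRG1, CA9 and PFKFB4, as it was for VEGFA. Neither CA9 (0.50, adjusted p = 0.0857) nor PFKFB4 (0.31, adjusted p = 0.254) passed without replicate 2. Limma on log2(TPM + 0.1) gave 1.17 (adjusted p = 0.059) for CA9 and 0.71 (adjusted p = 0.053) for PFKFB4, which did not pass. CA9 also did not pass with DESeq2 and the block (1.04, adjusted p = 0.175).

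Other angiogenic factors, secreted or, as for JAG1, membrane-bound, held genes called in either direction. Of 15 genes, all in the table, tests were made on 13, and in the paired fit 4 rose (against 12.7% of all genes), 2 fell (against 12.4%) and 7 did not pass, with a median of 0.26. CXCL8, the neutrophil chemokine IL-8 that also acts on endothelial cells, had 1181.8, 1896.6 and 476.2 TPM in control and 356.9, 632.1 and 176.4 TPM in ACSS2 shRNA cells. It was lower in each pair and fell by 1.70 on the log2 scale (SE 0.13, adjusted p = 7.29e-06), although the groups overlapped. HBEGF, a ligand of EGFR, fell by 0.99 (SE 0.13, adjusted p = 0.000402). PDGFB, which recruits pericytes, had 0.713 ± 0.311 TPM in control and 4.31 ± 1.72 TPM in ACSS2 shRNA cells (2.49, SE 0.32, adjusted p = 0.000262). Its groups did not overlap, with ACSS2 shRNA higher, which held for 10.7% of all genes tested. JAG1, a Notch ligand, rose (0.69, adjusted p = 0.00311), but not without replicate 2 (0.48, adjusted p = 0.0667). With that replicate left out, 1 gene of the list rose and 2 fell, against 664 and 917 of all 13061 genes tested.

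Genes for angiogenesis inhibitors were the last list. Of 7, 6 were tested, 3 rose (against 12.7% of all genes), 2 fell (against 12.4%) and 1 stayed above the threshold in the paired fit, with a median of 0.42. SERPINF1, which encodes the inhibitor PEDF, had 43.9 ± 8.3 TPM in control and 77.8 ± 15.5 TPM in ACSS2 shRNA cells (0.71, SE 0.12, adjusted p = 0.00141). THBS1, the matrix protein thrombospondin-1, had 15.4 ± 5.27 and 37.7 ± 19.9 TPM (1.08, SE 0.19, adjusted p = 0.0016). COL18A1, the collagen from which endostatin is cut, rose by less (0.41, adjusted p = 0.0245), but did not pass without replicate 2 (0.28, adjusted p = 0.311) or replicate 3 (0.42, adjusted p = 0.063), nor with DESeq2 and the block (0.39, adjusted p = 0.0545). TIMP3, a metalloproteinase inhibitor that also blocks VEGFA binding to KDR, had 49.3 ± 9.58 and 30.5 ± 5.69 TPM and fell by 0.80 (SE 0.16, adjusted p = 0.00363), a call that limma on log2(TPM + 0.1) did not make (-0.69, adjusted p = 0.0621).

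**Figure D5:**
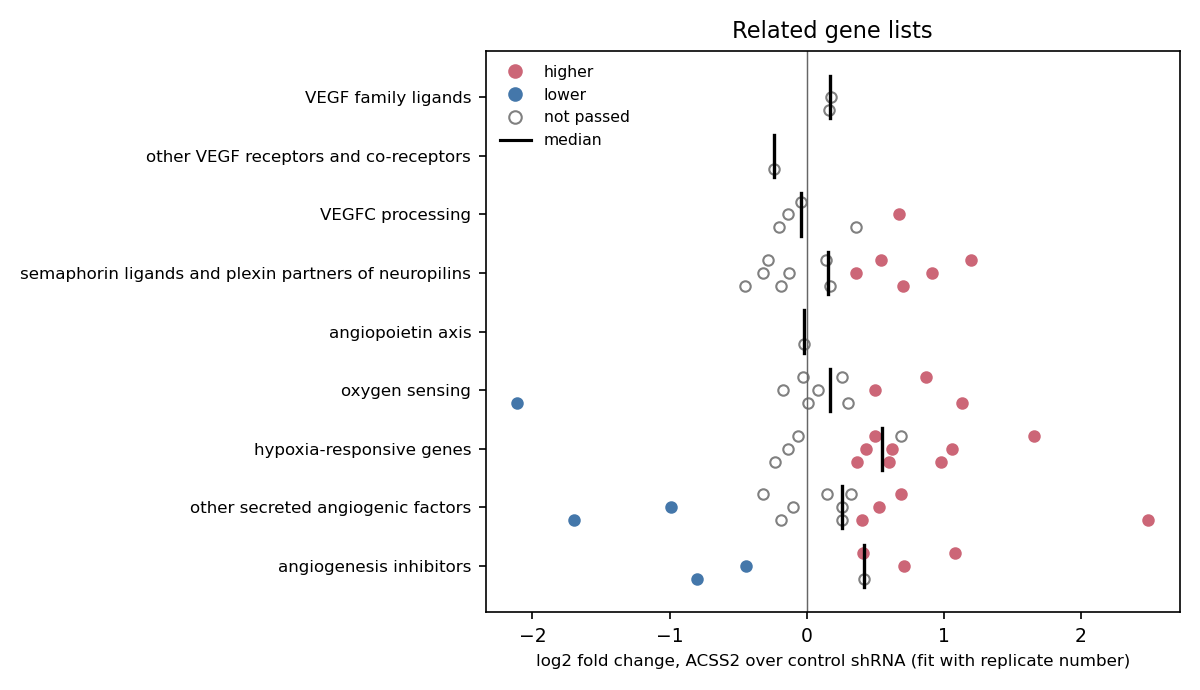
Paired log2 fold change of every tested gene in the 9 related lists, with filled points for genes at an adjusted p under 0.05 (red higher, blue lower), open points for the rest, and a bar at each list's median. Hypoxia-responsive genes have 8 red points of 12, and the other ligands, the other receptors and the angiopoietin list have none.

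Without the block, edgeR called 0 of the 62 tested genes of these 9 lists, although 15 had an unadjusted p under 0.05 (against 14.0% of all genes). DESeq2 without the block called 7 of them (against 3.99% of all genes), namely PLXNA1, PLXNA3, PLXND1, VHL and PDGFB, which were higher, and ARNT2 and CXCL8, which were lower. Those 7 were also called by edgeR with the block, in the same directions.

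The levels of VEGFA over the 6 libraries were followed most closely by FOXP4 (r = 0.993), MAP4K4 (r = 0.991) and INSR (r = 0.989), out of 10695 genes that averaged 5 CPM or more. Of the other members compared, NRP1 (r = 0.894) and VEGFC (r = 0.875) came nearest to it. TIE1 was followed most closely by SESN2 (r = 0.995), DGAT1 (r = 0.991) and LARP6 (r = 0.989), and KDR had r = 0.929 with it. TIE1 and VEGFA had r = 0.03. These are Pearson coefficients of log2(CPM + 0.5) over the same 6 libraries, which share group and replicate number, and they are given as a description.

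The authors' deposited table gives its own comparison of the groups. In the authors' deposited table none of the 10 genes had a q-value under 0.05, with the lowest at 0.0717 for CDH5, 0.105 for VEGFC and 0.113 for NRP1. Its log2 fold changes, in the authors' deposited table, were 1.87 for CDH5, 0.75 for NRP1, 0.70 for VEGFA and VEGFC, 0.69 for KDR, 0.68 for PECAM1, 0.22 for TIE1, -0.25 for ESAM and -0.36 for FLT1.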

How the data were processed

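RNA of 6 libraries, 3 per group, was enriched for mRNA with oligo(dT) beads and sequenced by BGI on DNBSEQ, per the labels. Reads were handled with HISAT, Bowtie2 and RSEM, per the submitters' processing notes, which give no versions. For the annotation, and for whether counting used strand, nothing is stated in the labels or the file. Chromosome names in the file are those of GRCh38. The strand listed in the table differs from GENCODE for 21.2% of genes, KDR, FLT1 and NRP1 among them, so that column was not used. The authors deposited expected counts and TPM per gene and library, and results of their own group test (log2 ratio, p-value and q-value, NA for 860 genes).

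Of the lines of the table, 565 were spilled annotation text and were left out, and 26 symbols turned into dates were restored. Expected counts were rounded. The group comparison used edgeR 4.0.16 in R 4.3.3 (quasi-likelihood F test, TMM, filterByExpr with minimum count 10 and minimum total 15, Benjamini-Hochberg over 13003 genes), unpaired as the planned design and with the replicate number as a block. The labels' batch tag numbers the libraries in both groups. Deviations from group means correlated by 0.716, 0.494 and 0.74 across genes between libraries of the same number, above the required 0.1, so both fits are given. Between different numbers they correlated by at most -0.00998. Deviations cancel out within a group, so positive values for the same number push the others down, and the latter are not separate evidence of pairing. Alternatives used DESeq2 1.42.0, limma 3.58.1 on log2 TPM (pseudocounts 1 and 0.1), RLE factors, library size only, other low-count filters and left-out libraries. Intervals at a count of 0 use 3 counts. The fits were tested on simulated data.

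Members and gene lists were chosen with earlier results of these data known. Named by rule were the 10 members and ACSS2, from each list the 4 genes of smallest p among those called in the paired fit (otherwise the 2 of highest mean TPM), and the 3 genes most like the highest ligand and receptor averaging 5 CPM or more. Marker genes named with values were picked after these were seen.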

Additional observations from a re-analysis of the deposited data

How the results depend on the processing

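Without the replicate block 9 genes and 0 members were called. That count of genes was 519 with DESeq2, 39 with no low-count filter, 3 with limma on log2(TPM + 0.1), 3265 with the replicate block and 2578 with DESeq2 and the block, and 0 to 6 with 1 library left out. Members called were 5 with the block and 4 with DESeq2 and the block, and 0 in the other unpaired alternatives. From the replicate block fit (3265 genes), limma on log2(TPM + 0.1) gave 1818 genes, and leaving out a replicate number gave 1581 (without replicate 2) to 3109. Members called ranged from 3 (without replicate 2) to 6 (without replicate 1) when a number was left out, all higher. Over all genes, 664 of 13061 were called higher without replicate 2 and 1382 of 13108 without replicate 1. The split of the blocked calls, 1657 higher and 1608 lower, became 2082 and 982 with limma on log2(TPM + 1) and 1192 and 626 with log2(TPM + 0.1), where the median over all genes was 0.11 and 0.12. Changes in direction with the block were found for FLT1 (-0.57 to 0.04 with a number left out), ESAM (-0.44 to 0.02), PGF (-0.12 to 0.57) and PTPRB. PTPRB was 0.03 with library size only, 0.06 with log2(TPM + 1), 0.11 with log2(TPM + 0.1) and -0.11 to 0.02 with a number left out. The other members and ACSS2 kept their direction in the 10 alternatives to the block fit. TEK had a value only with no low-count filter. The cause of these shifts was not tested. Counts of TEK, CDH5, FLT1 and PECAM1 were at most 124 in any library, and the part of depth in their results was not tested.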
